A study of Mus musculus with 20 samples.

Results

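The genes described are 10 enzymes and enzyme subunits of lactate and pyruvate metabolism: Ldha, Ldhb, Pdha1, Pdhb, Dlat, Pdk1, Pfkp, Hk1, Gpi1 and Pgk1. They were picked by symbol and not by a rule on their values, but with earlier results of these data known. All 10 were found, each at 1 locus, among 23309 gene symbols. The levels come from 2 RNA-seq experiments on mouse oocytes and embryos. The Btg4 experiment covers 4 stages: germinal vesicle (GV) oocytes, which are arrested in meiotic prophase, mature oocytes at metaphase II (MII), zygotes and 2-cell embryos. Each stage has 2 libraries labelled Btg4-/- and 2 wild-type libraries, which makes 8 groups. The Erk experiment has 4 libraries, each a group of its own: GV labelled Erk-/-, GV wild type, MII labelled Erk-/- and MII wild type. All mice were of the ICR strain, and every sample was a pool of 60. The females were 21 to 23 days of age and had received PMSG and hCG, hormones that drive follicle growth and ovulation. They were mated where embryos were wanted. The sources used here do not give the deleted alleles, any promoter or Cre behind them, the genotype of the sires, or whether replicates came from separate animals. The p-values therefore measure sample-to-sample spread that may be technical.

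Mouse oocytes and cleavage-stage embryos live on pyruvate and lactate rather than on glucose, and the ability to use glucose develops later in cleavage. Lactate dehydrogenase interconverts lactate and pyruvate. Its B subunit, encoded by Ldhb, is known as the abundant form of the mouse egg, while the A subunit, encoded by Ldha, is typical of glycolytic tissues. Pyruvate enters the citric acid cycle through the pyruvate dehydrogenase complex, whose E1 component is built of subunits encoded by Pdha1 and Pdhb and whose E2 component is encoded by Dlat. Pdk1 encodes a kinase that phosphorylates E1 and switches the complex off. Hk1, Gpi1, Pfkp and Pgk1 encode the glycolytic enzymes hexokinase 1, glucose-6-phosphate isomerase, the platelet-type phosphofructokinase and phosphoglycerate kinase 1. Btg4 encodes an adaptor that brings the CCR4-NOT deadenylase to maternal mRNAs as the oocyte matures.

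Levels are the authors' deposited FPKM, fragments per kilobase of transcript scaled to the mapped total of the library. FPKM is scaled to length, and levels of different genes are set side by side on that basis. Other differences between genes in how their mRNA was captured or counted were not tested. Libraries of the Btg4 experiment held an estimated 3100000 to 5790000 fragments, and those of the Erk experiment 6710000 to 9270000. Replicate libraries correlated across genes with a Pearson r of 0.942 to 0.980 on the log2 scale. Btg4 itself did not follow the genotype labels: it had 172 and 191 FPKM in the MII libraries labelled Btg4-/- against 415 and 406 FPKM in wild type, but 3514 and 3632 FPKM in the 2-cell libraries labelled Btg4-/- against 1147 and 964 FPKM in wild type. A gene-level FPKM cannot show a deletion of part of a gene. All 10 oocyte markers reached 1 FPKM in every group. The 8 markers of sperm and spermatids summed to 1.37 to 16.4 FPKM a library in the Btg4 experiment and to 0.200 to 46.5 FPKM in the Erk experiment. Prm1, Tnp1 and Tnp2, which encode sperm chromatin proteins, were at 0 in every group, while Prm2, which encodes another, averaged 11.9 FPKM in GV libraries labelled Btg4-/-. This marker list also holds Ldhc, a lactate dehydrogenase gene, which had 32.8 FPKM in the GV library labelled Erk-/-. Of the 2 sperm markers tested, both were higher in MII libraries labelled Btg4-/-, where 29.1% of all genes were higher.

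The sequences at the ends of these mRNAs are shown because maternal mRNAs are stored, lengthened or trimmed at their poly(A) tail during these stages. The last 30 bases of the 3′ UTR, from the GENCODE M21 transcripts on GRCm38, are given 5′ to 3′ for the dehydrogenase pair and for the 3 members with the largest genotype changes at MII. Capitals mark the poly(A) signal AATAAA or ATTAAA.
Ldhb (chr6:142490249-142490278, minus strand): tgatcaAATAAAgttagcaattgcagcata
Ldha (chr7:46855598-46855627, plus strand): tgtcatgccaAATAAAaccttgaacagtga
Pdha1 (chrX:160122209-160122238, minus strand): aATTAAActtgtttgattcagctactttta
Pdhb (chr14:8165996-8166025, minus strand): ttgataaggAATAAAggggattcccaccaa
Gpi1 (chr7:34201330-34201359, minus strand): gatggccagtcAATAAAaagacttggtaca
The 3′ UTR was 188 bases long in Ldhb, 340 in Pdhb, 486 in Ldha, 1084 in Gpi1 and 3734 in Pdk1. AATAAA or ATTAAA lay in the last 100 bases of 9 of the 10 members, all but Hk1, and in 78.8% of 19355 transcripts with a 3′ UTR of at least that length. The cytoplasmic polyadenylation element, searched on the transcript's own strand as TTTTAT or TTTTAAT, which can share its last bases with AATAAA, was found in the last 100 bases of 0 of the 10 members and of 17.9% of those transcripts. A match or its absence describes these letters in this window and nothing more.

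The promoters of Ldha and Pdk1 are shown because these were the members with the largest log2 gains between zygote and 2-cell embryo in wild type. They are RefSeq windows on GRCm38.p6, from 250 bases before to 50 bases after the annotated start, on the gene's strand. Capitals mark ACGTG on either strand, a form of the core of the hypoxia response element. The other form, GCGTG, can be read in both windows below but was not searched or marked. Where ACGTG reads CACGTG it also forms an E-box and is matched on both strands.
Ldha (chr7:46845554-46845853, plus strand): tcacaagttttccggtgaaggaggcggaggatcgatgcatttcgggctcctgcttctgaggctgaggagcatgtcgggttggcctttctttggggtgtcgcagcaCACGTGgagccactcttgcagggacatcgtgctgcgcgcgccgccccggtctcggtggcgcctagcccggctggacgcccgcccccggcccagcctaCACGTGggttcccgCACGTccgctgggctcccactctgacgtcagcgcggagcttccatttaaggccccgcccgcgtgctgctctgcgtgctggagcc
Pdk1 (chr2:71872974-71873273, plus strand): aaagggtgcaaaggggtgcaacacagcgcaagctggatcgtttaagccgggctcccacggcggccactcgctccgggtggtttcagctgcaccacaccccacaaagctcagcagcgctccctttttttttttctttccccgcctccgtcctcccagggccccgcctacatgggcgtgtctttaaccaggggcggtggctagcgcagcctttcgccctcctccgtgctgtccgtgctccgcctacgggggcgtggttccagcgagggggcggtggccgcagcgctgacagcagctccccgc
The Ldha window held 5 matches, 2 on the plus strand and 3 on the minus strand, with 2 CACGTG sites among them. The Pdk1 window held 0 matches to ACGTG, as did a downstream alternative window of each of these genes. Of all 32851 windows, 19.6% held at least 1 match, and among the other members matches were found in Pgk1, Pdhb and an alternative window of Hk1.

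The members did not move as a block. In MII oocytes labelled Btg4-/-, transcripts of the E1 subunits and of the glycolytic enzyme gene Gpi1 were higher than in wild type. Those of Pfkp and Pgk1 were called higher too, but these calls were lost in several alternatives. Both lactate dehydrogenase mRNAs differed by less than their error. The FPKM of all genes also summed higher in MII libraries labelled Btg4-/-, to 477225 and 472082 against 357517 and 379914 in wild type. In 2-cell embryos labelled Btg4-/-, Ldha was far lower than in wild type, Pdha1 and Dlat were higher, and Pdhb was lower. Changes were tested with limma on log2(FPKM + 1) over the 16 libraries of the Btg4 experiment, with Benjamini-Hochberg adjustment over 12311 genes and a threshold of 0.05; 9 of the 10 members passed the filter of a mean of 1 FPKM in some group, and Hk1 did not. At GV, 0 of the 9 were higher and 1 was lower in the libraries labelled Btg4-/-, where 1.45% of all genes were higher and 6.46% lower. In MII oocytes, 5 were higher and 0 lower, where 29.1% of all genes were higher and 23.3% lower. In zygotes 2 were higher and 1 lower, where 24.4% of all genes were higher and 23.3% lower. In 2-cell embryos 3 were higher and 3 lower, where 22.6% of all genes were higher and 26.4% lower. The median log2 change of the 9 was -0.19 at GV, 0.43 at MII, 0.48 in zygotes and 0.22 in 2-cell embryos, against -0.12, 0.09, 0.01 and -0.05 for all genes tested. The oocyte markers moved with genotype too: of 10, 0 were higher and 2 lower in GV libraries labelled Btg4-/-, 5 higher and 3 lower at MII, 6 higher and 1 lower in zygotes, and 10 higher in 2-cell embryos. Their part in the members' changes was not tested.

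**Figure D1:**
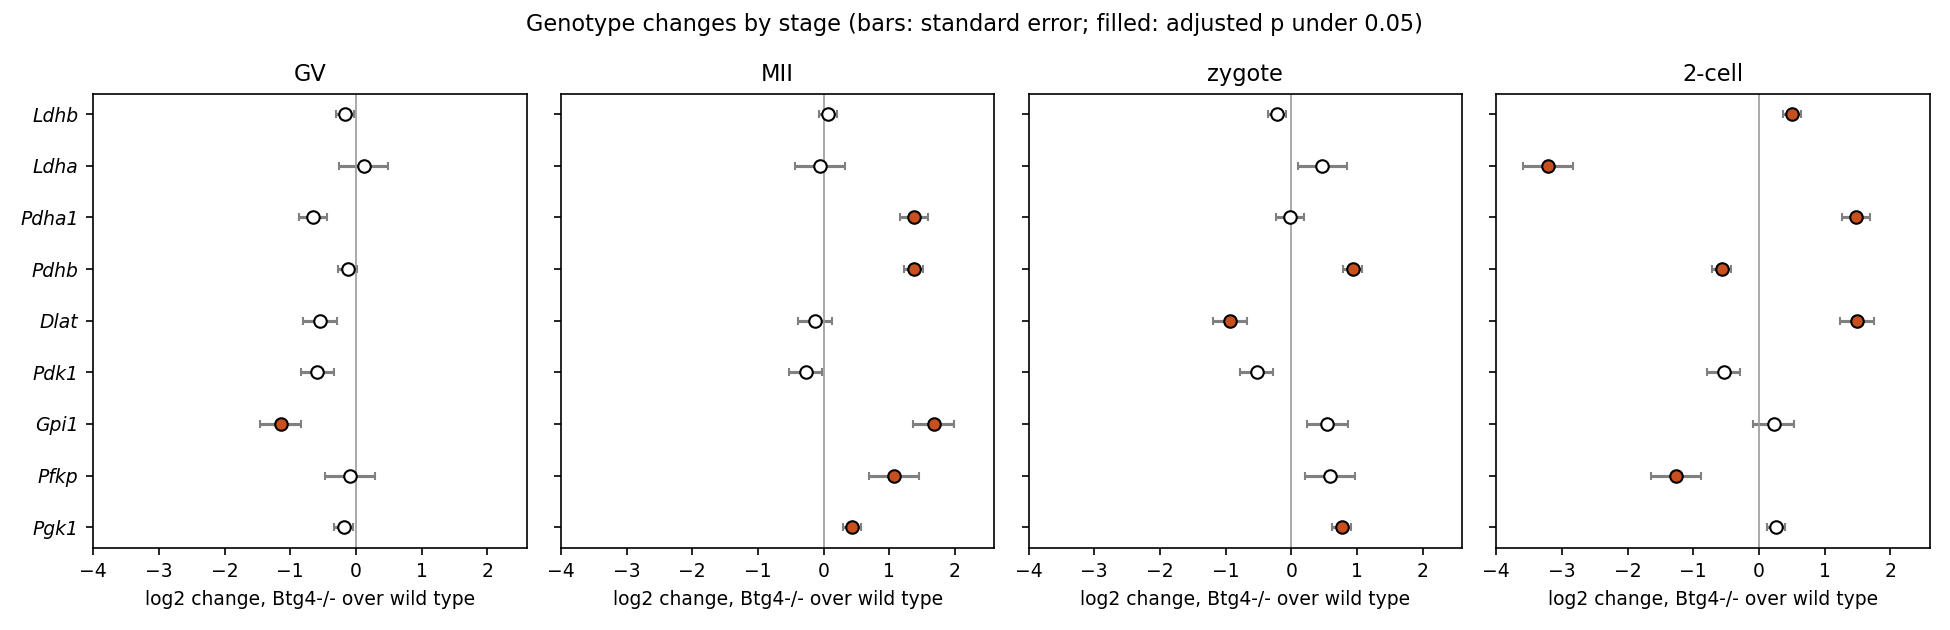
Log2 change of each tested member, libraries labelled Btg4-/- over wild type, at the 4 stages; points are limma estimates on log2(FPKM + 1), bars are standard errors, and filled points have an adjusted p under 0.05. Ldha stands at -3.21 in 2-cell embryos, and Pdha1, Pdhb, Gpi1, Pfkp and Pgk1 lie to the right of 0 at MII; Hk1 was not tested.

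Ldhb (mm9, chr6:142438769-142456463) was the most abundant member in all 8 groups of the Btg4 experiment. In GV oocytes it had 49.8 and 41.8 FPKM in the libraries labelled Btg4-/-, against 54.1 and 48.3 FPKM in wild type. In MII oocytes it had 3133 and 2958 FPKM in the libraries labelled Btg4-/-, against 2830 and 2961 FPKM in wild type. The genotypes overlapped at both stages, and every MII library lay far above every GV library. In order of FPKM, Ldhb was the 7th and 8th gene of wild-type MII oocytes and the 1440th and 1561st of wild-type GV oocytes. The step from GV to MII was 6.03 ± 0.14 (log2, SE) in the libraries labelled Btg4-/- and 5.80 ± 0.14 in wild type, with adjusted p = 9.2e-12 and 1.5e-11. The difference between these steps was 0.23 ± 0.19 (adjusted p = 0.37).

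After MII the deposited FPKM of Ldhb came down in both genotypes. Zygotes had 2045 and 1841 FPKM in the libraries labelled Btg4-/-, against 2526 and 2033 FPKM in wild type, and these ranges overlap. The zygote difference of -0.22 ± 0.14 (adjusted p = 0.21) passed the test only under quantile normalization (-0.83, adjusted p = 9.7e-05), as did the difference between the steps from MII to zygote (-0.94, adjusted p = 0.0036). The step from MII to zygote was -0.65 ± 0.14 in the libraries labelled Btg4-/- (adjusted p = 0.0074) and -0.35 ± 0.14 in wild type (adjusted p = 0.073). The difference between the steps was -0.30 ± 0.19 (adjusted p = 0.38). Over all alternatives the wild-type step ran from -0.64 to 0.28, so its direction depended on the processing. The call in the libraries labelled Btg4-/- was lost without MII library 1 (-0.61, adjusted p = 0.060) or without zygote library 2 (-0.57, adjusted p = 0.075) of that genotype, and wild type reached the threshold without its zygote library 1 (-0.51, adjusted p = 0.038) and under median-of-ratios scaling (-0.64, adjusted p = 0.0053). In 2-cell embryos Ldhb had 646 and 584 FPKM in the libraries labelled Btg4-/-, against 479 and 388 FPKM in wild type, with no overlap. The FPKM of all genes also summed higher in those libraries, to 453813 and 441998 against 299983 and 302000 in wild type. In order of FPKM the direction was the reverse. Ldhb was the 116th and 124th gene in 2-cell libraries labelled Btg4-/- and the 63rd and 83rd in wild type. The step from zygote to 2-cell embryo was -1.66 ± 0.14 in the libraries labelled Btg4-/- and -2.39 ± 0.14 in wild type (adjusted p = 8.3e-07 and 1.8e-08), and the difference between them was 0.73 ± 0.19 (adjusted p = 0.0074). The 2-cell difference of 0.51 ± 0.14 between genotypes (adjusted p = 0.0078) was lost without 2-cell library 1 labelled Btg4-/- (0.44, adjusted p = 0.065) or without wild-type 2-cell library 2 (0.36, adjusted p = 0.093), and quantile normalization turned it to -0.55 (adjusted p = 0.0022). Under that normalization the difference between the steps from zygote to 2-cell embryo was 0.28 (adjusted p = 0.20). With the 2-cell libraries alone the 2-cell difference between genotypes did not pass (adjusted p = 0.084). The deposited FPKM of Ldhb lay above its own deposited interval in 16 of 20 libraries, at 1.12 to 1.19 times the interval's midpoint over all 20.

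**Figure D2:**
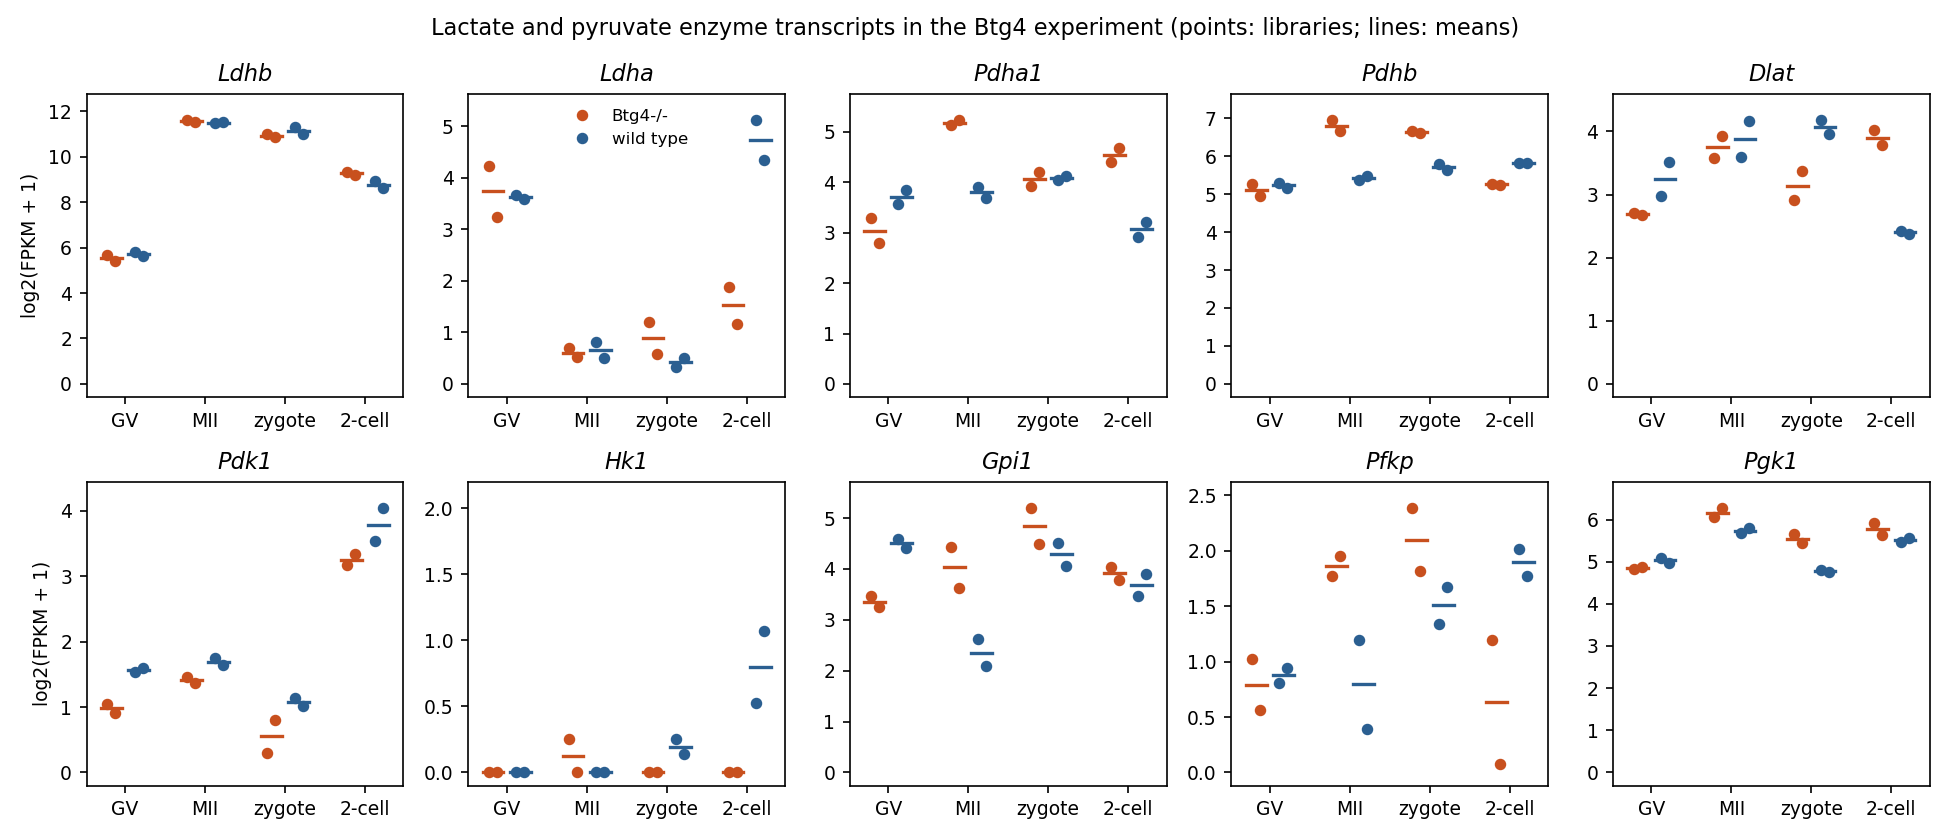
Level of each member as log2(FPKM + 1) in the 16 libraries of the Btg4 experiment by stage, libraries labelled Btg4-/- left of wild type; points are libraries and lines are means of 2. Ldhb rises above 11 at MII in both genotypes, Ldha falls below 1 at MII in both, and 2-cell embryos have 2.69 and 1.24 FPKM of Ldha in the libraries labelled Btg4-/- and 33.9 and 19.4 FPKM in wild type.

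Ldha (mm9, chr7:54101174-54110997) took the opposite course. GV oocytes had 17.8 and 8.50 FPKM in the libraries labelled Btg4-/-, against 11.6 and 11.03 FPKM in wild type. MII oocytes had 0.625 and 0.429 FPKM in the libraries labelled Btg4-/-, against 0.770 and 0.423 FPKM in wild type. The genotypes overlapped at both stages. From GV to MII, Ldha fell in both genotypes, with log2 steps of -3.13 ± 0.38 in the libraries labelled Btg4-/- and -2.96 ± 0.38 in wild type (adjusted p = 1.8e-05 and 2.5e-05). Zygotes stayed low, with 1.30 and 0.5002 FPKM in the libraries labelled Btg4-/-, against 0.263 and 0.411 FPKM in wild type, a difference that did not pass the test (adjusted p = 0.34). In all 4 MII libraries and 3 of the 4 zygote libraries the deposited interval of Ldha reached down to 0, so these levels are near the limit of detection.

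The 2-cell embryo was where the genotypes parted for Ldha. It had 2.69 and 1.24 FPKM in the libraries labelled Btg4-/-, against 33.9 and 19.4 FPKM in wild type, and both wild-type values lay above those of Ldha in all 14 other libraries of the experiment. The change was -3.21 ± 0.38 on the log2 scale (adjusted p = 1.7e-05) and held without any 1 library. The step from zygote to 2-cell embryo was 0.63 ± 0.38 for Ldha in the libraries labelled Btg4-/- (adjusted p = 0.20), while wild type rose by 4.32 ± 0.38 (adjusted p = 7.9e-07). The difference between the steps was -3.69 ± 0.54 (adjusted p = 0.00011). In FPKM the order of the groups was wild-type 2-cell embryos, then GV oocytes of both genotypes, which overlap, then 2-cell embryos and zygotes labelled Btg4-/-, which overlap, with the MII groups and wild-type zygotes at the bottom.

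Markers of the surrounding granulosa and cumulus cells moved in part with Ldha. The 17 markers summed to 90.7 to 96.8 FPKM in GV libraries labelled Btg4-/- and 79.2 to 88.2 FPKM in wild-type GV libraries, and to 5.07 to 5.33 FPKM and 8.65 to 14.3 FPKM at MII. In 2-cell embryos the sum was 5.89 to 6.46 FPKM in libraries labelled Btg4-/- and 24.0 to 31.5 FPKM in wild type. The 2-cell sums included a mean of 3.10 FPKM of Nr5a2, a nuclear receptor gene that the early embryo also uses, in libraries labelled Btg4-/- and 13.2 FPKM in wild type. In wild-type 2-cell embryos Amh, Foxl2, Fst, Inha, Inhba, Inhbb, Ptx3 and Vcan, 8 of the 17, were at 0, and in those labelled Btg4-/- 10 of the 17 were. At GV, 3 of the 17 were at 0 in each genotype: Ptgs2, Ptx3 and Tnfaip6 in libraries labelled Btg4-/- and Has2, Ptx3 and Tnfaip6 in wild type. Of 11 granulosa markers tested, 1 was higher and 3 were lower in 2-cell embryos labelled Btg4-/-. Of all genes 22.6% were higher and 26.4% lower there. At MII 0 of the 11 were higher and 4 lower, where 29.1% of all genes were higher and 23.3% lower. The markers' part in the level of Ldha was not tested. In bulk samples fewer cells of a type cannot be told apart from less RNA per cell. Ldha and Pgk1 also have processed pseudogenes that can take up or lend reads.

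The balance of the pair, Ldhb as a percentage of the summed FPKM of Ldha and Ldhb, was given per library and without a test. It was 73.7% and 83.1% in GV libraries labelled Btg4-/- and 82.3% and 81.4% in wild type. At MII and in zygotes it was above 99.9% in all 8 libraries. In 2-cell embryos it was 99.6% and 99.8% in libraries labelled Btg4-/- and 93.4% and 95.2% in wild type, so that the 2-cell groups did not overlap. A share within a library does not depend on how libraries are scaled against each other.

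The E1 alpha subunit gene Pdha1 was higher in MII oocytes labelled Btg4-/-, with 33.9 and 36.7 FPKM against 14.1 and 11.9 FPKM in wild type. The change was 1.38 ± 0.21 (adjusted p = 0.00011). At GV its order was the reverse, with 8.73 and 5.98 FPKM in the libraries labelled Btg4-/- against 10.8 and 13.4 FPKM in wild type, which did not pass the test (-0.66 ± 0.21, adjusted p = 0.080). Thus Pdha1 rose from GV to MII by 2.14 ± 0.21 in the libraries labelled Btg4-/- (adjusted p = 2.9e-06) and moved by 0.10 ± 0.21 in wild type (adjusted p = 0.73), and the steps differed by 2.04 ± 0.30 (adjusted p = 0.00013). From MII to zygote Pdha1 fell by 1.12 ± 0.21 in the libraries labelled Btg4-/- (adjusted p = 0.0038). In zygotes the genotypes overlapped, with 14.2 and 17.3 FPKM in the libraries labelled Btg4-/-, against 15.4 and 16.4 FPKM in wild type. In 2-cell embryos they were apart again, with 20.1 and 24.7 FPKM in the libraries labelled Btg4-/-, against 6.51 and 8.32 FPKM in wild type (1.48 ± 0.21, adjusted p = 8.2e-05). The step from zygote to 2-cell embryo was 0.48 ± 0.21 in the libraries labelled Btg4-/-, which did not pass (adjusted p = 0.080) except under median-of-ratios scaling (0.67, adjusted p = 0.017) or quantile normalization (0.67, adjusted p = 0.016). Wild type fell by 1.02 ± 0.21 over that step (adjusted p = 0.0011), and the difference between the steps was 1.499 ± 0.30 (adjusted p = 0.0012). The Pdha1 calls at MII and in 2-cell embryos held without any 1 library.

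Pdhb, the gene of the E1 beta subunit, was also higher in MII oocytes labelled Btg4-/-, with 123 and 99.5 FPKM against 40.6 and 43.7 FPKM in wild type (1.37 ± 0.14, adjusted p = 4.1e-06). It stayed higher in zygotes, with 100.4 and 96.8 FPKM against 53.9 and 48.6 FPKM in wild type (0.93 ± 0.14, adjusted p = 0.00015). In 2-cell embryos the order turned round, with 37.6 and 36.8 FPKM in the libraries labelled Btg4-/- against 55.4 and 55.7 FPKM in wild type (-0.57 ± 0.14, adjusted p = 0.0054). The partners of the E1 heterotetramer therefore differed at that stage: Pdha1 was higher and Pdhb lower in the libraries labelled Btg4-/-. In the libraries labelled Btg4-/- Pdhb rose by 1.69 ± 0.14 from GV to MII (adjusted p = 7.1e-07) and fell by 1.38 ± 0.14 from zygote to 2-cell embryo (adjusted p = 5.7e-06). In wild type it lay between 34.9 and 55.7 FPKM in all 8 libraries, and none of its 3 steps passed the test; under quantile normalization the steps from GV to MII (0.51, adjusted p = 0.0047) and from zygote to 2-cell embryo (0.39, adjusted p = 0.021) did. The genotypes differed in the steps from GV to MII and from zygote to 2-cell embryo by 1.499 ± 0.20 (adjusted p = 6.9e-05) and -1.498 ± 0.20 (adjusted p = 6.0e-05). These Pdhb calls held without any 1 library.

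Dlat, the E2 gene, differed between genotypes after fertilization. At MII it had 10.9 and 14.1 FPKM in the libraries labelled Btg4-/-, against 11.1 and 16.96 FPKM in wild type, which overlap. In zygotes it had 6.51 and 9.34 FPKM in the libraries labelled Btg4-/-, against 17.1 and 14.5 FPKM in wild type (-0.93 ± 0.26, adjusted p = 0.0097). This call was lost without zygote library 1 labelled Btg4-/- (-0.70, adjusted p = 0.098) or wild-type zygote library 1 (-0.81, adjusted p = 0.070). With the zygote libraries alone the zygote call was also lost (adjusted p = 0.0501). In 2-cell embryos the order was the opposite, with 15.2 and 12.7 FPKM in the libraries labelled Btg4-/- against 4.39 and 4.21 FPKM in wild type (1.49 ± 0.26, adjusted p = 0.00038). This 2-cell call held without any 1 library. From zygote to 2-cell embryo Dlat rose by 0.76 ± 0.26 in the libraries labelled Btg4-/- (adjusted p = 0.029), which was lost without zygote library 1 (0.53, adjusted p = 0.21) or 2-cell library 1 (0.64, adjusted p = 0.13) of that genotype. It fell by 1.66 ± 0.26 in wild type (adjusted p = 0.00012). The steps differed by 2.42 ± 0.36 (adjusted p = 0.00015). From GV to MII, Dlat rose by 1.06 ± 0.26 in the libraries labelled Btg4-/- (adjusted p = 0.0045), where GV libraries had 5.52 and 5.41 FPKM. The wild-type step from GV libraries at 6.84 and 10.4 FPKM was 0.64 ± 0.26 (adjusted p = 0.053), and it passed without wild-type GV library 2 (0.91, adjusted p = 0.028), without wild-type MII library 1 (0.93, adjusted p = 0.021), under quantile normalization (0.80, adjusted p = 0.015) and with a filter of 5 FPKM (adjusted p = 0.044).

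The kinase gene Pdk1 was low up to the zygote and gained in 2-cell embryos of both genotypes. In GV oocytes it had 1.06 and 0.883 FPKM in the libraries labelled Btg4-/-, against 1.91 and 2.03 FPKM in wild type. In zygotes it had 0.228 and 0.750 FPKM in the libraries labelled Btg4-/-, against 1.21 and 1.02 FPKM in wild type. In 2-cell embryos it had 7.97 and 9.09 FPKM in the libraries labelled Btg4-/-, against 10.6 and 15.4 FPKM in wild type. Non-overlap between genotypes, in either direction, was seen for 5, 6, 6 and 8 of the 9 tested members in order of stage. The share of all genes without overlap was not computed, so these counts cannot be read as particular to the members. For Pdk1 the libraries labelled Btg4-/- lay below wild type without overlap at all 4 stages. At none did the change pass the test (-0.59, -0.27, -0.53 and -0.54 in order of stage, adjusted p = 0.19, 0.40, 0.11 and 0.097). The 2-cell change passed without wild-type 2-cell library 1 (-0.79, adjusted p = 0.024), and the zygote change with a pseudocount of 0.1 FPKM (-1.19, adjusted p = 0.048). From zygote to 2-cell embryo Pdk1 rose by 2.70 ± 0.25 in the libraries labelled Btg4-/- and by 2.71 ± 0.25 in wild type (adjusted p = 2.3e-06 and 1.3e-06). The difference between these steps was -0.01 ± 0.35 (adjusted p = 0.99). From MII to zygote it fell by 0.87 ± 0.25 in the libraries labelled Btg4-/- (adjusted p = 0.035), a call lost without MII library 1 (adjusted p = 0.14), MII library 2 (adjusted p = 0.11) or zygote library 1 (-0.61, adjusted p = 0.23) of that genotype. The wild-type step was -0.62 ± 0.25 (adjusted p = 0.086); it passed without wild-type 2-cell library 1 (adjusted p = 0.042) or library 2 (adjusted p = 0.043), and under median-of-ratios scaling (-0.76, adjusted p = 0.036) or quantile normalization (-0.87, adjusted p = 0.026).

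**Figure D3:**
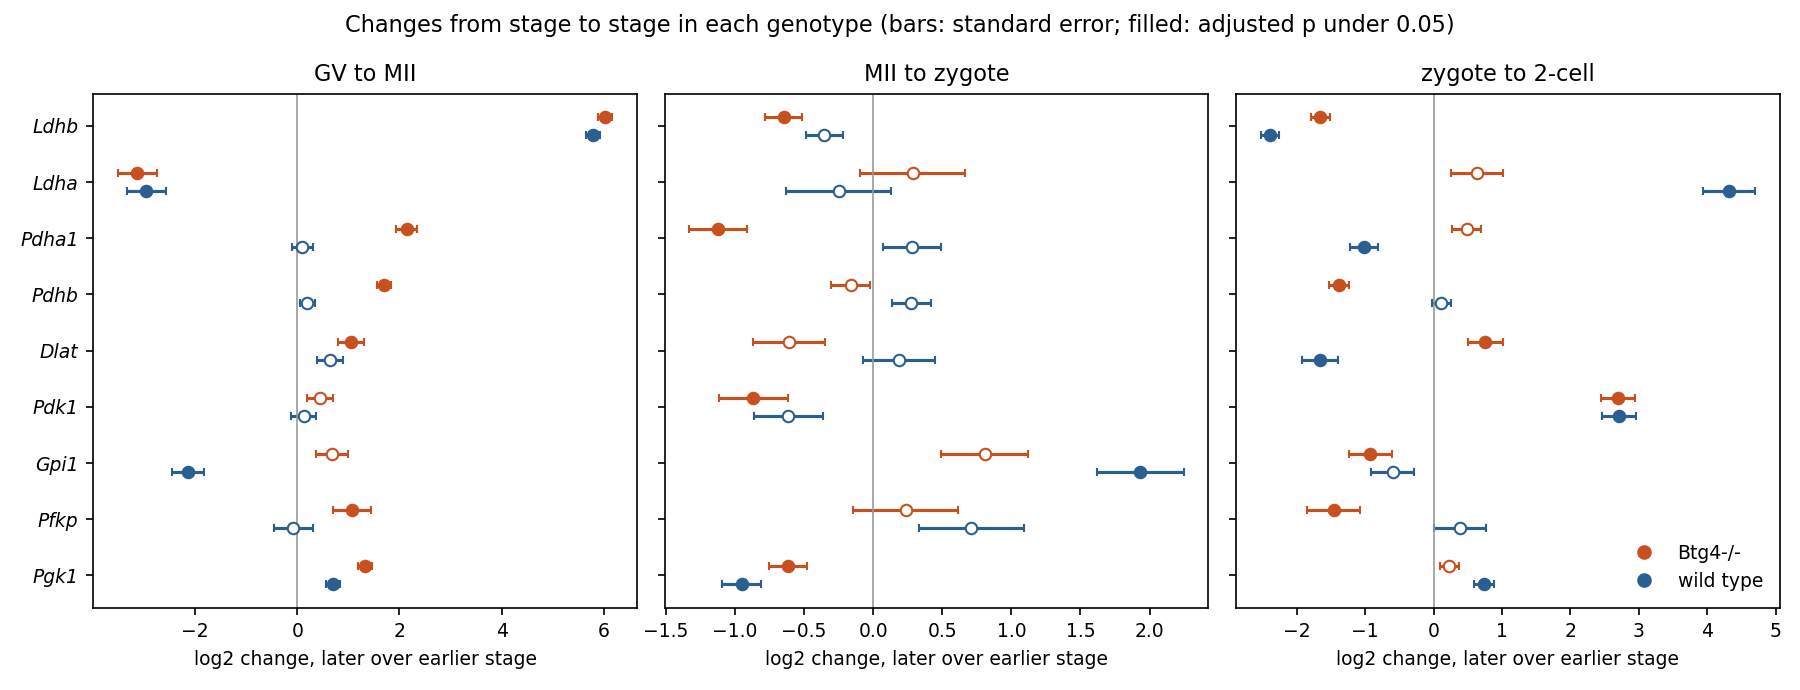
Log2 change from each stage to the next, libraries labelled Btg4-/- above wild type, with standard errors; filled points have an adjusted p under 0.05, and each panel has its own scale. Pdk1 moves by 2.70 and 2.71 from zygote to 2-cell embryo, while Ldha moves by 0.63 in the libraries labelled Btg4-/- and 4.32 in wild type.

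Among the glycolytic enzymes, Hk1 was barely detected. It was listed at 0 in all 4 GV libraries of the Btg4 experiment, in both wild-type MII libraries, and in both zygote and both 2-cell libraries labelled Btg4-/-. Its highest values were 0.436 and 1.104 FPKM, in wild-type 2-cell embryos, which correspond to at most 15 fragments. No fold is given for Hk1.

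Gpi1 was the member with the largest difference between genotypes in the step from GV to MII. At GV it had 10.03 and 8.51 FPKM in the libraries labelled Btg4-/-, against 23.1 and 20.3 FPKM in wild type. At MII it had 20.6 and 11.3 FPKM in the libraries labelled Btg4-/-, against 5.13 and 3.27 FPKM in wild type. The groups did not overlap at either stage, and their order turned round. The step was 0.67 ± 0.32 in the libraries labelled Btg4-/- (adjusted p = 0.10) and -2.15 ± 0.32 in wild type (adjusted p = 7.9e-05), a difference of 2.82 ± 0.45 (adjusted p = 0.00025). In the libraries labelled Btg4-/- the step passed without MII library 2 (1.08, adjusted p = 0.029). At MII the change was 1.68 ± 0.32 (adjusted p = 0.00060) and held without any 1 library. At GV it was -1.15 ± 0.32 (adjusted p = 0.045); adjusted p was 0.057 to 0.24 without any 1 of the 4 GV libraries, the 2 wild-type zygote libraries or the 4 2-cell libraries, and 0.11 and 0.16 under median-of-ratios scaling and quantile normalization, which shifted the median change of all genes at GV by 0.12. Zygotes had 35.5 and 21.4 FPKM in the libraries labelled Btg4-/-, against 21.8 and 15.7 FPKM in wild type, and the wild-type step from MII was 1.93 ± 0.32 (adjusted p = 0.00080). From zygote to 2-cell embryo it fell by 0.92 ± 0.32 in the libraries labelled Btg4-/- (adjusted p = 0.029), which was lost without their zygote library 1 (-0.57, adjusted p = 0.25), 2-cell library 1 (-1.05, adjusted p = 0.058) or 2-cell library 2 (-0.79, adjusted p = 0.14), and under median-of-ratios scaling (adjusted p = 0.091) and quantile normalization (adjusted p = 0.088).

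Pfkp, whose enzyme commits sugar to glycolysis, was low in every group of the Btg4 experiment. At MII it had 2.42 and 2.88 FPKM in the libraries labelled Btg4-/-, against 1.29 and 0.316 FPKM in wild type (1.07 ± 0.38, adjusted p = 0.032). This call was lost without MII library 1 (1.16, adjusted p = 0.077) or library 2 (0.98, adjusted p = 0.13) labelled Btg4-/- or wild-type MII library 2 (0.67, adjusted p = 0.26), and with a pseudocount of 0.1 FPKM (1.85, adjusted p = 0.10). The MII call was also lost with no filter (adjusted p = 0.061), with the MII libraries alone (adjusted p = 0.097) and without the 4 GV libraries (adjusted p = 0.051). In 2-cell embryos Pfkp had 1.29 and 0.0514 FPKM in the libraries labelled Btg4-/-, against 3.05 and 2.42 FPKM in wild type (-1.26 ± 0.38, adjusted p = 0.015). With the 2-cell libraries alone this did not pass (adjusted p = 0.14). The 2-cell call was lost without 2-cell library 2 labelled Btg4-/- (-0.70, adjusted p = 0.17) or wild-type 2-cell library 1 (-1.14, adjusted p = 0.087), and under quantile normalization (-0.80, adjusted p = 0.078). Zygotes had 4.21 and 2.52 FPKM in the libraries labelled Btg4-/-, against 1.53 and 2.20 FPKM in wild type, and GV libraries had 0.480 to 1.03 FPKM. From GV to MII Pfkp rose by 1.07 ± 0.38 in the libraries labelled Btg4-/- (adjusted p = 0.036), a call lost without any 1 of their GV and MII libraries, wild-type GV library 1 or either wild-type 2-cell library (adjusted p = 0.051 to 0.20), and under median-of-ratios scaling (adjusted p = 0.078). From zygote to 2-cell embryo Pfkp fell by 1.46 ± 0.38 in the libraries labelled Btg4-/- (adjusted p = 0.0071), a call lost without their zygote library 1 (-1.18, adjusted p = 0.069) or 2-cell library 2 (-0.90, adjusted p = 0.085).

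Pgk1, whose enzyme makes ATP in glycolysis, lay between 25.9 and 75.8 FPKM in all 16 libraries. At MII it had 66.1 and 75.8 FPKM in the libraries labelled Btg4-/-, against 50.3 and 54.3 FPKM in wild type (0.43 ± 0.14, adjusted p = 0.020). The call was lost without MII library 2 labelled Btg4-/- (0.33, adjusted p = 0.13), without wild-type MII library 1 (0.38, adjusted p = 0.098), and under median-of-ratios scaling (0.32, adjusted p = 0.074) or quantile normalization (0.02, adjusted p = 0.95). In zygotes it had 49.5 and 42.4 FPKM in the libraries labelled Btg4-/-, against 27.1 and 25.9 FPKM in wild type (0.77 ± 0.14, adjusted p = 0.00060), and this call held without any 1 library. From GV, where it had 27.3 and 28.2 FPKM in the libraries labelled Btg4-/-, against 33.0 and 30.5 FPKM in wild type, it rose by 1.32 ± 0.14 in the libraries labelled Btg4-/- and by 0.70 ± 0.14 in wild type by MII (adjusted p = 5.7e-06 and 0.00093). From MII to zygote it fell in both, with steps of -0.62 ± 0.14 in the libraries labelled Btg4-/- (adjusted p = 0.011) and -0.95 ± 0.14 in wild type (adjusted p = 0.00041). The fall in the libraries labelled Btg4-/- was lost without their MII library 2 (-0.52, adjusted p = 0.088) or zygote library 2 (-0.51, adjusted p = 0.10). In 2-cell embryos it had 59.3 and 49.0 FPKM in the libraries labelled Btg4-/-, against 43.4 and 46.3 FPKM in wild type, where the difference did not pass (adjusted p = 0.15). The step from zygote to 2-cell embryo was 0.23 ± 0.14 in the libraries labelled Btg4-/- (adjusted p = 0.21; 0.43 and adjusted p = 0.026 under median-of-ratios scaling) and a rise of 0.74 ± 0.14 in wild type (adjusted p = 0.00061). The difference of -0.51 ± 0.20 between these steps just missed the threshold (adjusted p = 0.051) and passed in 7 of the alternatives, with adjusted p = 0.015 to 0.049.

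Markers of blood cells stood apart in the wild-type MII group, whose libraries enter each MII comparison. The 8 markers in the files summed to 0 and 1.53 FPKM in MII libraries labelled Btg4-/- and to 50.3 and 85.0 FPKM in wild-type MII libraries, of which Hba-a1, a haemoglobin gene, made up 55.3 FPKM on average. Slc4a1 and Ptprc, which mark red cell membranes and leukocytes, were at 0 in both groups. The part of these cells in the MII differences was not tested.

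Over the steps, 6 of the 9 tested members were higher at MII than at GV and 1 was lower in the libraries labelled Btg4-/-, where 27.3% of all genes were higher and 18.1% lower. In wild type 2 were higher and 2 lower, where 25.2% of all genes were higher and 28.5% lower. The step differed between genotypes for 4 members, Pdha1, Pdhb, Gpi1 and Pgk1, each in the positive direction, as for 26.5% of all genes (16% in the negative). From MII to zygote, 0 were higher and 4 lower in the libraries labelled Btg4-/- (10.3% and 5.38% of all genes), and 1 was higher and 1 lower in wild type (20.5% and 8% of all genes). That step differed between genotypes for Pdha1 alone, by -1.40 ± 0.30 (adjusted p = 0.0093), where 4.95% of all genes differed in the positive and 7.25% in the negative direction. From zygote to 2-cell embryo, 2 were higher and 4 lower in the libraries labelled Btg4-/- (18.3% and 28.2% of all genes), and 3 were higher and 3 lower in wild type (27.1% and 30.2% of all genes). The step differed between genotypes for 6 members, Ldhb, Pdha1 and Dlat in the positive direction and Ldha, Pdhb and Pfkp in the negative, where 22.2% of all genes differed in the positive and 25.9% in the negative direction.

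Other genes of the pathway were taken from 4 lists, of glycolysis, of the pyruvate dehydrogenase complex and its regulators, of lactate and pyruvate handling, and of glucose entry. They hold 57 genes in the files besides the members, of which 44 passed the filter. At GV, limma called 0 of the 44 in either direction. At MII 19 were higher and 8 lower in the libraries labelled Btg4-/-, in zygotes 16 were higher and 6 lower, and in 2-cell embryos 13 were higher and 14 lower. The shares of all genes, higher and lower, were 1.45% and 6.46% at GV and 29.1% and 23.3% at MII. They were 24.4% and 23.3% in zygotes, and 22.6% and 26.4% in 2-cell embryos. Of the 15 tested genes of lactate and pyruvate handling, 11 were higher and 2 lower at MII, with a median log2 change of 1.28. Of the 13 tested genes of glycolysis 5 were higher and 2 lower there (median 0.23), of 7 of the pyruvate dehydrogenase list 2 were higher and 3 lower (median -0.67), and of 9 of glucose entry 1 was higher and 1 lower (median 0.11). In 2-cell embryos the glucose entry list had 2 higher and 5 lower (median -0.97), and the pyruvate dehydrogenase list 4 higher and 2 lower (median 0.88). Mpc2, a subunit of the carrier that takes pyruvate into mitochondria, had 111 and 133 FPKM in MII libraries labelled Btg4-/-, against 9.62 and 16.2 FPKM in wild type (3.18 ± 0.24, adjusted p = 2.2e-07). Bsg, the chaperone of the plasma membrane lactate carriers, had 211 and 193 FPKM in MII libraries labelled Btg4-/-, against 25.4 and 20.3 FPKM in wild type (3.10 ± 0.16, adjusted p = 9.0e-09). The triose phosphate isomerase gene Tpi1 was higher by 3.19 ± 0.29 at MII. Lower at MII were Mdh1, the cytosolic malate dehydrogenase gene (-2.63 ± 0.30), Hif1a, the hypoxia factor gene (-2.41 ± 0.22), and Pdha2, the testis-type E1 alpha gene (-2.10 ± 0.35).

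In zygotes labelled Btg4-/-, Mpc2 stayed higher, with 88.9 and 93.1 FPKM against 9.86 and 9.97 FPKM in wild type. Mdh2, the mitochondrial malate dehydrogenase gene, and the enolase gene Eno1 were higher by 2.57 ± 0.27 and 2.41 ± 0.61. Hif1a had 26.6 and 33.7 FPKM in zygotes labelled Btg4-/-, against 93.4 and 110.0 FPKM in wild type, and Pdp1, a phosphatase gene whose product reactivates E1, was lower by a log2 change of -1.88 ± 0.34. In 2-cell embryos the other phosphatase gene, Pdp2, had 0.770 and 1.42 FPKM in the libraries labelled Btg4-/-, against 40.3 and 34.1 FPKM in wild type (-4.20 ± 0.29, adjusted p = 1.4e-07). Dld, which encodes the E3 component of the complex, had 51.4 and 70.7 FPKM in 2-cell libraries labelled Btg4-/-, against 11.6 and 9.78 FPKM in wild type. Thus, of the genes named here, those of E1 alpha, E2 and E3 were higher in 2-cell embryos labelled Btg4-/-. Those of E1 beta and of the phosphatase Pdp2 were lower. The pyruvate dehydrogenase list, which holds Dld and Pdp2, had 4 higher and 2 lower of 7 tested. Mdh1, lower at MII and in zygotes, was higher in 2-cell embryos, with 30.02 and 22.8 FPKM in the libraries labelled Btg4-/- against 4.75 and 2.46 FPKM in wild type. Bpgm, whose enzyme makes bisphosphoglycerate, was higher by 2.03 ± 0.21, and Pgam1, the phosphoglycerate mutase gene, was lower by a log2 change of -2.83 ± 0.39. The lactate carrier gene Slc16a3 was listed at 0 in both 2-cell libraries labelled Btg4-/- and had 2.95 and 3.70 FPKM in wild type.

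Likeness of pattern was measured as Pearson r of log2(FPKM + 1) over the 16 libraries, among 6814 genes with a mean of at least 10 FPKM in some group, as a description with no test. Libraries of a group share their stage and genotype. Ldhb was most like Laptm4b, Nap1l4 and Carhsp1 (r = 0.995, 0.991 and 0.983). Laptm4b averaged 692 FPKM in MII libraries labelled Btg4-/- and 651 FPKM in wild type, against 52.7 and 54.3 FPKM at GV in the same order. Ldha was most like Hist1h2ab, Hist1h2ao and Rpl9 (r = 0.965, 0.959 and 0.958), the first pair being replication histone genes and Rpl9 a ribosomal protein gene with processed copies. Rpl9 averaged 7.49 FPKM in 2-cell libraries labelled Btg4-/- and 136.9 FPKM in wild type. Pdk1 was most like Rnf141, Oaz2 and Akt1 (r = 0.960, 0.960 and 0.957).

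ERK kinases act in oocyte maturation. Each group of the Erk experiment is 1 library, so its values are given with no test. Mapk3, which encodes ERK1, had 52.3 FPKM in the GV library labelled Erk-/- and 333 FPKM in wild type, but 34.3 FPKM in the MII library labelled Erk-/- and 25.7 FPKM in wild type, so it did not follow the label at MII. Of the 8 members at 1 FPKM or more in either GV library, 1 was more than 2-fold higher and 1 more than 2-fold lower on the log2(FPKM + 1) scale, where 20.5% of all genes were higher and 25.8% lower. Of 8 members at MII, 4 were more than 2-fold higher and 0 lower, where 36.7% of all genes were higher and 9.66% lower.

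Ldhb was the most abundant member in all 4 libraries of the Erk experiment. It had 4372 FPKM in the GV library labelled Erk-/- and 6619 FPKM in wild type, the most abundant gene of each library. At MII it had 6356 FPKM in the library labelled Erk-/- and 2389 FPKM in wild type. In order of FPKM it was there the 2nd and the 22nd gene. From GV to MII the log2 difference was 0.54 in the libraries labelled Erk-/- and -1.47 in wild type. Ldha was listed at 0 in both GV libraries and in the wild-type MII library, and had 2.24 FPKM in the MII library labelled Erk-/-. Gpi1 had 55.7 FPKM in the GV library labelled Erk-/- and 62.0 FPKM in wild type, and 13.9 FPKM in the MII library labelled Erk-/- and 0.0328 FPKM in wild type. Dlat had 12.5 FPKM in the MII library labelled Erk-/- and 2.81 FPKM in wild type. Pdk1 had 11.9 FPKM in the GV library labelled Erk-/- and 2.72 FPKM in wild type, while Pdha1 had 4.59 FPKM in the GV library labelled Erk-/- and 29.4 FPKM in wild type. In the step from GV to MII, 2 of 9 members were more than 2-fold higher and 3 lower in the libraries labelled Erk-/- (26.3% and 36.8% of all genes), and 2 of 8 were higher and 6 lower in wild type (22.7% and 52.3% of all genes). These counts take in genes listed at 0 in 1 library of the pair, for which no fold is given: Ldha at MII and in the step of the libraries labelled Erk-/-, both among the higher, and Pfkp in the wild-type step, among the lower.

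**Figure D4:**
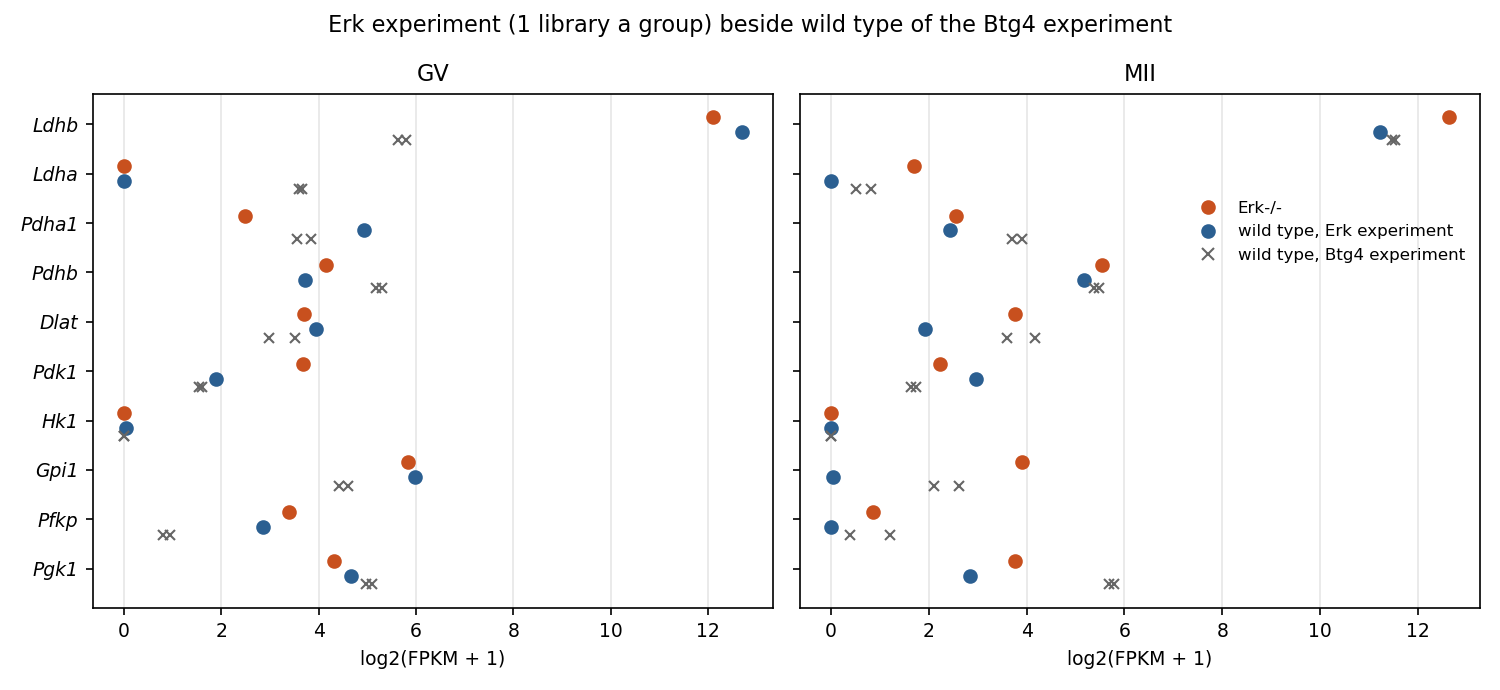
Level of each member as log2(FPKM + 1) at GV and MII in the Erk experiment, the library labelled Erk-/- above wild type, 1 library each, with the 2 wild-type libraries of the Btg4 experiment as crosses. Wild-type GV oocytes differ most for Ldhb, at 6619 FPKM in the Erk experiment and 54.1 and 48.3 FPKM in the Btg4 experiment.

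The wild-type libraries of the experiments did not give the same levels at the same labelled stage. Ldhb in wild-type GV oocytes was 129 times higher in the Erk experiment than the mean of the Btg4 experiment, and in wild-type MII oocytes it was 0.825 times that mean. Ldha was listed at 0 in the wild-type GV library of the Erk experiment and had 11.6 and 11.03 FPKM in the Btg4 experiment, and Pgk1 at MII was 0.118 times the mean of the Btg4 experiment. Across 13979 genes on the log2 scale, Pearson r with wild-type GV oocytes of the Erk experiment was 0.722 for wild-type GV oocytes and 0.755 for wild-type MII oocytes of the Btg4 experiment. With wild-type MII oocytes of the Erk experiment it was 0.613 for wild-type GV oocytes and 0.733 for wild-type MII oocytes. By this measure the GV library of the Erk experiment was thus slightly nearer to MII than to GV oocytes of the Btg4 experiment, and its MII library was nearest to the same labelled stage; whether the GV labels mean the same stage in both experiments was not tested further. The rise of Ldhb from GV to MII thus rests on the GV libraries of the Btg4 experiment, and the wild-type libraries of the Erk experiment ran the other way. Experiment and library preparation cannot be told apart here.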

How the data were processed

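Per the labels, mRNA was purified from 60 pooled oocytes or embryos a sample and read from both ends on an Illumina HiSeq. Per the submitters' processing notes, CASAVA 1.8, TopHat, Cufflinks and the mm9 genome were used; for the annotation and the other versions, nothing is given in the sources used here. The authors deposited gene-level FPKM with an interval for 23813 loci a library. If mRNA was purified by its poly(A) tail, FPKM can also move with tail length. Groups and replicate numbers came from the sample titles.

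Loci that share a symbol were summed. Python 3.11.15 and limma 3.58.1 in R 4.3.3 were used, with a group-means model on log2(FPKM + 1), where the pseudocount of 1 understates changes of low genes, 8 residual degrees of freedom, a variance trend and two-sided p-values. The script was tested on simulated data. GENCODE M21 transcript lengths and the widths of the deposited intervals (4 SDs) gave the depth estimates; such intervals cover counting error only. The squared difference between libraries of a group was, at the median gene, 2.55 to 6.55 times what the intervals predict, so none was treated as a duplicate.

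The members and gene lists were chosen with earlier results of these data known. Named besides the members were the 3 pathway genes with the largest log2 change in each direction among those called at a stage, and the 3 genes most like Ldha, Ldhb and Pdk1; genes named in marker lists illustrate those lists. Alternatives were another pseudocount, 2 filters, 2 scalings, a replicate block, no variance trend, the highest locus per symbol, each stage alone and each library left out. Sequences came from GENCODE M21 and RefSeq on GRCm38, a different build from the files, so no coordinates of the 2 builds were mixed. One check of the labels is not reported here.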

Additional observations from a re-analysis of the deposited data

Results flagged for a closer look

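The following members differed between the genotypes in a step from one stage to the next, by a limma test of the difference itself (libraries labelled Btg4-/- minus wild type, adjusted p under 0.05). From GV to MII the log2 steps differed by 2.04 for Pdha1, 1.499 for Pdhb, 2.82 for Gpi1 and 0.62 for Pgk1. The Pgk1 value was lost under median-of-ratios scaling (0.27, adjusted p = 0.30), quantile normalization (0.03, adjusted p = 0.93) and a fit with no variance trend (adjusted p = 0.052), and without GV library 1 (0.59, adjusted p = 0.057) or MII library 2 (0.52, adjusted p = 0.085) labelled Btg4-/-, wild-type GV library 1 (0.56, adjusted p = 0.072) or wild-type MII library 1 (0.56, adjusted p = 0.067). From MII to zygote the steps differed by -1.40 for Pdha1. From zygote to 2-cell embryo they differed by -3.69 for Ldha, 0.73 for Ldhb, 1.499 for Pdha1, -1.498 for Pdhb, 2.42 for Dlat and -1.85 for Pfkp. The Pfkp value was lost without zygote library 1 (-1.57, adjusted p = 0.057) or 2-cell library 2 (-1.29, adjusted p = 0.054) labelled Btg4-/-, and the Ldhb value under quantile normalization.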

How the results depend on the processing

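Of 117 pairs of a tested member and a comparison, 55 were called. Still called in the same direction were 52 with a pseudocount of 0.1 FPKM, 50 of 50 with a filter of 5 FPKM and 51 with no filter. They were 48 with quantile normalization, 50 with median-of-ratios scaling and 53 with no variance trend. They were 10 of 15 with each stage alone, and 37 of 39 without the 4 GV libraries, a fit chosen after seeing the data. The highest locus per symbol kept all 55, but each member has 1 locus, so its levels and log2 changes could not differ there. The count at GV was 0 in place of 1 with the other pseudocount, no filter, either scaling, no variance trend or the stage alone. The wild-type count from MII to zygote was 4 in place of 2 with median-of-ratios scaling, and the difference from MII to zygote was called for 2 in place of 1 with quantile normalization, which also reversed Ldhb in 2-cell embryos (-0.55); the cause was not tested. Leaving out 1 library gave 0 to 1 members at GV, 3 to 5 at MII, 2 to 3 in zygotes and 5 to 7 in 2-cell embryos. For the steps in the libraries labelled Btg4-/- and in wild type it gave 6 to 7 and 4 to 5 from GV to MII, 2 to 4 and 2 to 3 from MII to zygote, and 3 to 6 and 6 to 7 from zygote to 2-cell embryo, and for the differences 3 to 4, 1 and 5 to 8. In all, 40 calls held without any 1 library and 15 did not. Same-numbered libraries did not deviate together (r = -0.010 to 0.045), so the numbers were not taken as pairs; the replicate block kept all 55 calls and added Ldhb from MII to zygote in wild type (-0.35, adjusted p = 0.017), Dlat from GV to MII in wild type (adjusted p = 0.044) and Gpi1 from GV to MII in the libraries labelled Btg4-/- (adjusted p = 0.049). Median-of-ratios scaling and quantile normalization shifted the median of all genes by over 0.1 at GV (0.12), from GV to MII in the libraries labelled Btg4-/- (-0.15 and -0.13), from MII to zygote in wild type (-0.18 and -0.22), from zygote to 2-cell embryo in the libraries labelled Btg4-/- (0.12 and 0.13) and in the difference from GV to MII (-0.19 and -0.22). The Ldhb share could not change with the highest locus per symbol, since Ldha and Ldhb each have 1 locus. An alternative by transcript length was not run, since the deposited values hold none. Depth limits Hk1, Pfkp, Pdk1 and Ldha most, with 7 to 10 fragments in the lowest of their libraries whose interval stayed above 0.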
